A study of Saccharomyces cerevisiae with 22 samples.

Results

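The proteasome subunit genes of budding yeast (Saccharomyces cerevisiae) were followed through a switch of carbon source. They were chosen by name: PRE1 to PRE10, PUP1 to PUP3 and SCL1 encode the 14 subunits of the core particle, and RPT1 to RPT6, RPN1 to RPN3 and RPN5 to RPN13 encode 18 subunits of the regulatory particle. RPN4, a transcription factor that carries a similar name, was left out of the 32 genes, and the small subunit SEM1 was not found among the genes measured. All 32 were among the 6242 genes measured, each on 1 row of the table. RNA came from 3 chemostats, cultures held at constant volume by inflow of fresh medium, and was measured on 22 two-colour arrays, with the sample in Cy5 and a common reference in Cy3 that the labels call a glucose and galactose pool. Each chemostat was sampled at steady state in galactose, in glucose before any steady state, and in steady glucose. The no3AT chemostat had no inhibitor and gave 2, 4 and 2 arrays in these phases, all of total RNA. The 3AT40mM chemostat held 40 mM 3AT (3-aminotriazole, which blocks His3, an enzyme of histidine synthesis) and gave 2, 5 and 1 arrays of total RNA. The no3AT2 chemostat, again without inhibitor, gave 1, 2 and 3 arrays of polyA RNA. Inhibitor is therefore represented by 1 culture, and RNA type cannot be told apart from the culture in no3AT2.

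The proteasome is the protease that destroys proteins tagged with ubiquitin, among them cell cycle regulators and misfolded proteins. Its core particle is a barrel of alpha rings, which gate the entrance, and beta rings, which hold the proteolytic sites. The regulatory particle caps the barrel: its base holds the Rpt ATPases, which unfold the substrate and open the gate, and ubiquitin receptors, and its lid removes ubiquitin. In yeast, transcription of subunit genes is driven by Rpn4, a short-lived activator that the proteasome itself degrades.

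Values are log2 ratios of sample over pool, centred on the median of each array. A value of 0 is thus the array's median gene, and a change is relative to that gene. Ratios compare a gene with its own level in the pool and do not rank RNA levels of different genes. A change in all cells and a larger change in some of them cannot be told apart in RNA of whole cultures. Array medians lay between -0.15 and 0.07 before centring, and 138 to 1587 of 6281 rows had no value on an array. Galactose arrays correlated with glucose arrays across genes down to -0.44 (85 pairs), with the dyes as the labels state them. Glucose arrays correlated with each other down to -0.25 (136 pairs). The 3AT40mM array labelled glucose at 552 h correlated at 0.87 with the galactose array at 522 h and at -0.20 with the glucose array at 574 h, so results that rest on it are given with and without it. GAL1, the galactokinase gene, stood at -0.93 on that array and at -1.06 on the galactose array at 522 h. Over the chemostats, the galactose genes GAL1, GAL7 and GAL3 fell in early glucose, with changes of -1.70, -2.54 and -1.42 (lower in 3 of 3 chemostats, limma's adjusted p = 0.0228, 0.00925 and 0.0157). From galactose to glucose steady state GAL1 changed by -1.29 in no3AT, 0.21 in 3AT40mM and -2.45 in no3AT2. In the same order GAL7 changed by -2.13, -0.37 and -2.21, and GAL3 by -1.91, -1.08 and -2.56, both lower in 3 of 3 chemostats. Values also followed position: a gene's value correlated at 0.21 to 0.70 (median 0.38 over the arrays) with the median of 20 nearby rows of the table (10 above and 10 below, taking every other row). Values with that median subtracted are called neighbour-corrected. So corrected, the early changes of GAL1, GAL7 and GAL3 were -1.74, -2.68 and -0.76 (limma's adjusted p = 0.177, 0.105 and 0.278).

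Of the 32 genes, 20 had a value on all 22 arrays, and an array had values for 26 to 32 of them. Each gene was spread over a median range of 1.93 between its lowest and highest array, against 2.10 for all genes tested. The median of the genes on an array lay between -0.55, on the 3AT40mM galactose array at 522 h, and 0.33, on the 3AT40mM glucose array at 574 h. The widest ranges belonged to PRE7, a structural beta subunit (3.52), RPN1, a scaffold of the base that docks ubiquitin-like proteins (3.15), and RPN10, a ubiquitin receptor (3.06). PRE7 was between -1.06 and 0.71 on 19 arrays and at -1.93, -2.14 and -2.81 on the no3AT glucose arrays at 385, 478 and 526 h. The no3AT glucose array between them, at 507 h, read 0.09, so the low PRE7 values did not form an unbroken run. RPN1 was highest at 1.57 on the no3AT glucose array at 353 h and lowest at -1.58 on the no3AT2 glucose array at 328 h. The narrowest ranges belonged to RPN11, which encodes the lid's deubiquitinating enzyme (0.88), to the lid gene RPN6 (1.14), and to RPN8, whose product pairs with Rpn11 (1.24). RPN11 lay between -0.62 and 0.26, and was above 0 on 3 arrays.

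**Figure D1:**
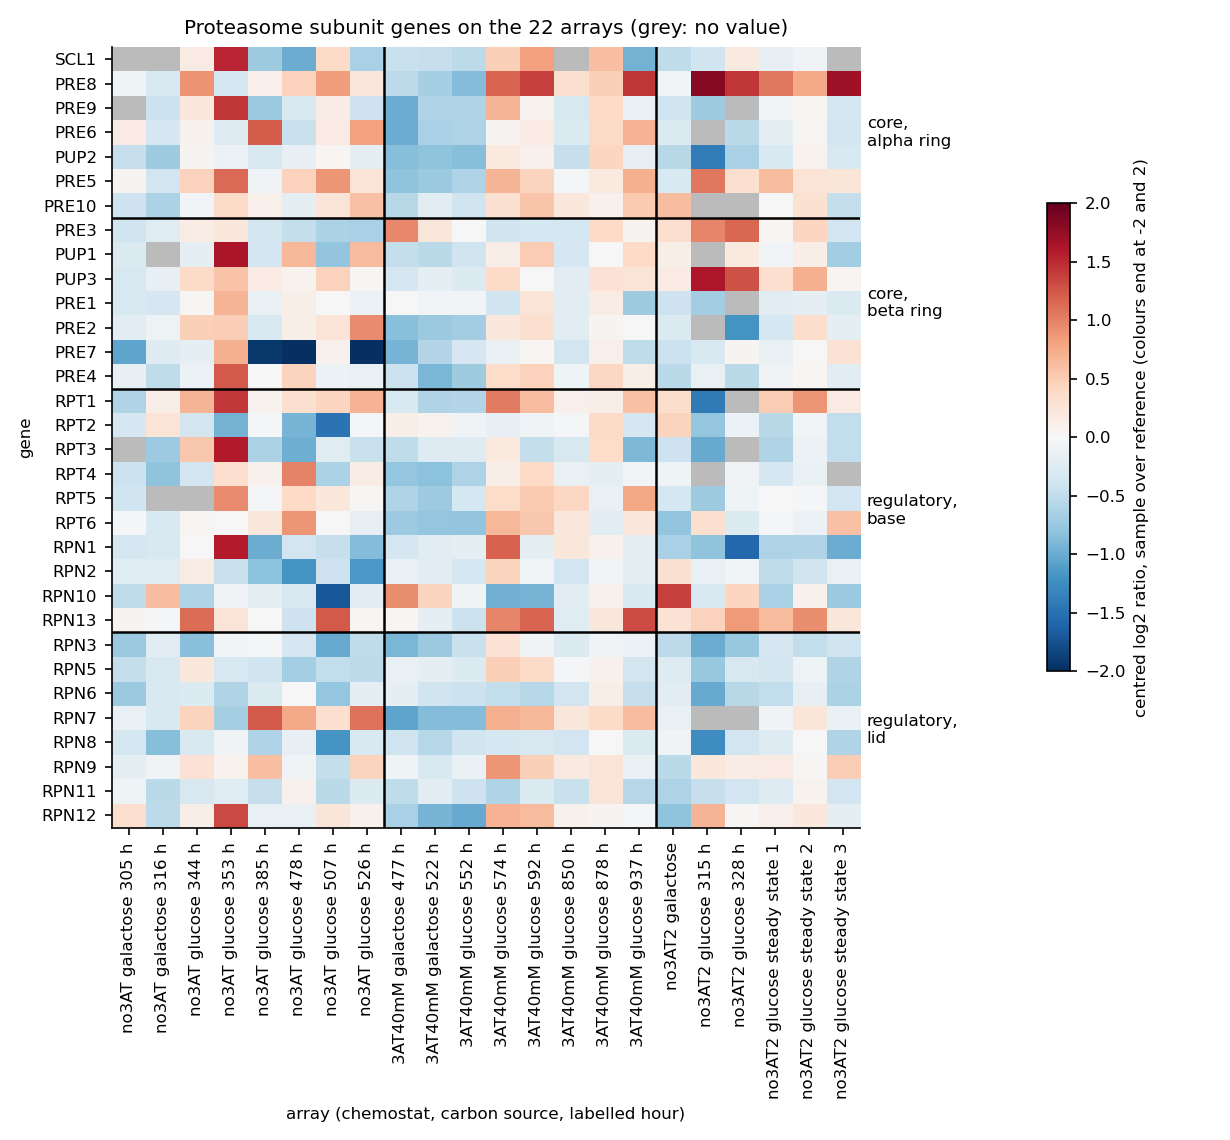
Centred log2 ratio of each of the 32 genes (rows, by ring) on each of the 22 arrays (columns, by chemostat and labelled hour). Red is above and blue below the array's median gene, and grey has no value. The 3AT40mM galactose arrays and the 552 h glucose array are mostly blue, with medians of -0.50, -0.55 and -0.42, and the 574 h array is mostly red, with a median of 0.33.

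SCL1, PRE10 and RPN7 had too few values to be tested, since testing required values on 80% or more of the arrays and for every chemostat in every phase. SCL1, an alpha subunit, had no value on either no3AT galactose array. In 3AT40mM it read -0.45 and -0.47 in galactose, and -0.53, 0.48, 0.81 and 0.59 on the glucose arrays at 552, 574, 592 and 878 h, then -0.94 at glucose steady state. PRE10, another alpha subunit, had no value on the no3AT2 glucose arrays at 315 and 328 h. It was at -0.42 and -0.63 in no3AT galactose and at 0.25 and 0.58 at glucose steady state, and in no3AT2 at 0.62 in galactose and 0.01, 0.30 and -0.48 at glucose steady state, so the order of the phases was not the same in both. RPN7, a lid subunit, read -1.05 and -0.87 in 3AT40mM galactose, 0.72 and 0.67 at 574 and 592 h, and 0.62 at glucose steady state. In no3AT it was at -0.14 and -0.30 in galactose and at 0.33 and 1.09 at glucose steady state.

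Each glucose array was set against the mean of its chemostat's own galactose arrays. In no3AT, 26 of 30 genes were above that mean at 344 h (median change 0.41) and 24 of 31 at 353 h (0.54). On later no3AT arrays the counts were 17, 20, 18 and 23 of 31 at 385, 478, 507 and 526 h, with median changes of 0.10, 0.32, 0.25 and 0.27. In 3AT40mM, 14 of 32 were above it at 552 h (-0.02), 26 of 32 at 574 h (0.92) and 27 of 32 at 592 h (0.89). The later 3AT40mM arrays had 23 of 31 at 850 h (0.39), 30 of 32 at 878 h (0.57) and 22 of 32 at 937 h (0.66). In no3AT2 the counts were 12 of 26 at 315 h (-0.22), 14 of 26 at 328 h (0.04), and 20 of 32, 27 of 32 and 14 of 30 on the steady-state arrays (0.17, 0.35 and -0.05). For all genes the share above was 45.3% to 55.5% on these arrays, and the proteasome genes' share was larger on 14 of 17, and on 13 of 17 when neighbour-corrected. The glucose arrays of one chemostat share their galactose arrays, so they are not independent.

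The median change from galactose was higher for core than for regulatory genes on 16 of 17 glucose arrays, but on 10 of 17 when neighbour-corrected. At 353 h in no3AT the median change was 0.91 for the core and 0.23 for the regulatory particle, and at 507 h 0.59 and -0.12. At 574 h in 3AT40mM the order was the other way, with 0.91 and 0.97. Neighbour-corrected, those pairs were 0.57 and 0.31, 0.44 and 0.05, and 0.57 and 0.97. As levels, the core median was above the regulatory median on 14 of 22 arrays (13 when neighbour-corrected).

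**Figure D2:**
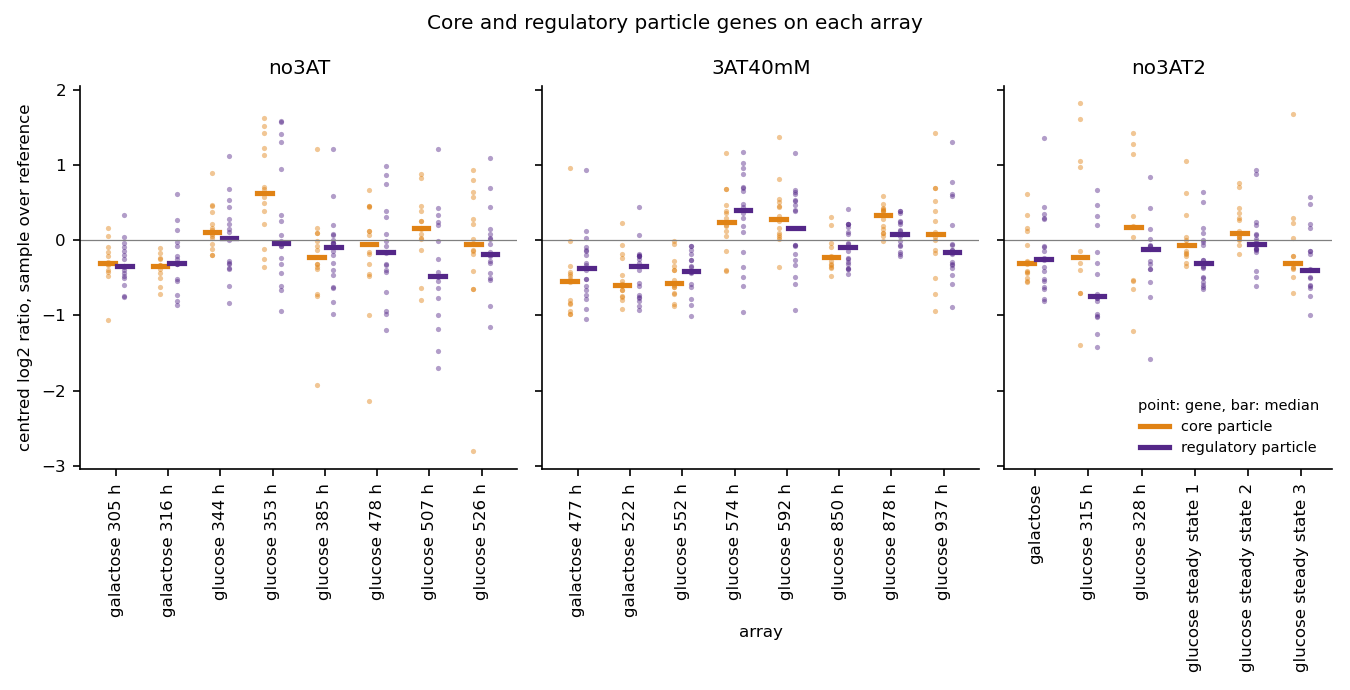
Centred log2 ratios of core (orange) and regulatory (purple) genes on every array, one panel per chemostat, with a point per gene and a bar at the median of each particle. The core median exceeded the regulatory median by most at 353 h (0.63 and -0.03) and 507 h (0.16 and -0.47) in no3AT and at 315 h in no3AT2 (-0.22 and -0.74). In 3AT40mM both medians were low at 477, 522 and 552 h.

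Early glucose, meaning each chemostat's 2 glucose arrays with the lowest labelled hours, was set against galactose steady state, the comparison that asks for a response common to the cultures. All 12 tested core genes and 12 of 17 tested regulatory genes had a positive mean change, with medians of 0.50 and 0.15. Over the 29 tested genes, 24 (82.8%) were positive with a median of 0.38, against 51.6% and 0.02 for all genes. None passed the threshold by limma (adjusted p under 0.05), while 7.11% of the 4783 genes tested did, 0.251% up and 6.86% down. An unadjusted p under 0.05 was reached by 6 of the 29 (20.7%, all genes 23.3%). Higher in each of the 3 chemostats were 11 of the 29 (37.9%, all genes 18.2%), 6 of the core and 5 of the regulatory particle. Lower in each were RPT2 and RPN10, 2 of the 29 (6.90%, all genes 23.8%). None had every early glucose array above every galactose array (all genes 0.23%) or every one below (0.418%).

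Among the alpha ring genes, the largest early changes were those of PRE8 and PRE5. PRE8 changed by 0.97 (SE 0.34, adjusted p = 0.101, higher in 3 of 3 chemostats), with 0.48 in no3AT, 0.74 in 3AT40mM and 1.69 in no3AT2. PRE5 changed by 0.92 (SE 0.29, adjusted p = 0.0689, 3 of 3), and its chemostats lay close together at 0.96, 0.80 and 1.00. Of the proteolytic beta subunits, PUP1, the trypsin-like one, had a mean change of 0.48 (SE 0.31), PRE3, the caspase-like one, of 0.14 (SE 0.32), and PRE2, the chymotrypsin-like one, of 0.09 (SE 0.32). PRE2 and PRE3 did not share a direction among chemostats: PRE2 changed by 0.64, 0.54 and -0.92 in no3AT, 3AT40mM and no3AT2, and PRE3 by 0.50, -0.80 and 0.73. Neighbour-corrected, PRE3 was higher in 3 of 3 chemostats, while PRE2 still differed in direction among them.

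In the regulatory particle, the lid gene RPN12 changed by 0.87 (SE 0.27, adjusted p = 0.0731, higher in 3 of 3). The ubiquitin receptor gene RPN10 changed by -0.97 (SE 0.29, adjusted p = 0.0615, lower in 3 of 3) and the ATPase gene RPT2 by -0.57 (SE 0.27, adjusted p = 0.214, lower in 3 of 3). Neighbour-corrected, RPT2's change was -0.01 and RPN10's -0.62. RPN6 changed by -0.21 (SE 0.27) and the deubiquitinase gene RPN11 by 0.03 (SE 0.27), with values of 0.04, -0.15 and 0.20 in the chemostats. With 574 and 592 h taken as the early hours of 3AT40mM in place of 552 and 574 h, a choice made after the data were seen, 4 of the 29 passed (all genes 2.05% up and 10.1% down): RPN12 (1.14), PRE8 (1.34) and PRE5 (1.10) rose and RPN10 fell by 1.11. Neighbour-corrected as well, none of the 29 and 0.0% of all genes passed. With 574 h as the only early 3AT40mM array 3 rose, PRE8, PRE5 and RPN12, and none fell (all genes 1.68% up and 8.85% down).

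The lasting difference was taken between the steady states in glucose and in galactose. PRE8 and PRE5, alpha ring genes, rose and RPN10 fell, and the other 26 tested genes did not pass. The 3 called are to be read against 17.6% of all genes tested, the 2 that rose against 4.54% and the 1 that fell against 13.0%. The count was 9 of 31 without the no3AT2 chemostat (all genes 23.2%), and 0 without the 3AT40mM chemostat (3.47%) or without the no3AT2 galactose array (6.26%). Of the 29, 8 had an unadjusted p under 0.05 (27.6%, all genes 34.6%). Positive mean changes were seen for 10 of 12 core genes (median 0.45) and 9 of 17 regulatory genes (0.04), and for 51.1% of all genes (0.02). Neighbour-corrected, the medians were 0.24 and 0.20, with all 12 core and 13 of 17 regulatory genes positive. Higher in each chemostat were 14 of the 29 (48.3%, all genes 30.5%) and lower in each 5 (17.2%, all genes 31.8%). Every steady-state glucose array lay above every galactose array for PRE8, PUP2 and PRE5, 3 of the 29 (all genes 6.1%), and below for none (all genes 7.25%).

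PRE8 read -0.09 and -0.33 on the no3AT galactose arrays at 305 and 316 h, -0.52 and -0.66 in 3AT40mM, and -0.06 in no3AT2. In steady glucose it read 0.83 and 0.22 in no3AT, 1.42 in 3AT40mM, and 1.06, 0.76 and 1.69 in no3AT2. The lowest glucose array, at 526 h in no3AT, was still above the highest galactose array. Its change was 1.33 (SE 0.34, adjusted p = 0.0176, higher in 3 of 3 chemostats), made of 0.74 in no3AT, 2.01 in 3AT40mM and 1.23 in no3AT2. In between, PRE8 was low at 353 h in no3AT (-0.35) and at 552 h in 3AT40mM (-0.87).

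PRE5, whose product sits in the same ring, read 0.06 and -0.38 in no3AT galactose, -0.80 and -0.74 in 3AT40mM and -0.31 in no3AT2. In steady glucose it read 0.88 and 0.28 in no3AT, 0.70 in 3AT40mM and 0.63, 0.27 and 0.24 in no3AT2, again with no overlap, although the gap between 0.06 and 0.24 was narrow. The change was 0.97 (SE 0.29, adjusted p = 0.0332, higher in 3 of 3), with 0.74, 1.47 and 0.69 in the chemostats. Its largest single value was 1.14 at 353 h in no3AT.

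RPN10 read -0.50 and 0.62 in no3AT galactose, 0.93 and 0.45 in 3AT40mM and 1.36 in no3AT2. Its steady-state glucose values were -1.70 and -0.21 in no3AT, -0.31 in 3AT40mM, and -0.65, 0.08 and -0.74 in no3AT2. The groups overlapped through the no3AT galactose array at 305 h, and the no3AT arrays of one phase differed by more than 1 log2 unit from each other. It fell by 1.27 (SE 0.29, adjusted p = 0.0105, lower in 3 of 3), with -1.02, -1.0 and -1.80 in the chemostats.

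None of the 3 passed when neighbour-corrected, where 0.418% of all genes did: the change was 0.80 for PRE8 (adjusted p = 0.164), 0.71 for PRE5 (0.168) and -0.58 for RPN10 (0.291), in the same directions. The galactose genes GAL7 and GAL3 passed without the correction (limma's adjusted p = 0.00836 and 0.00297) but not with it (0.116 and 0.123). Over the 33 alternatives run for each, PRE8 passed in 25, PRE5 in 19 and RPN10 in 27, with adjusted p from 0.00476 to 0.258, 0.0122 to 0.364 and 0.00185 to 0.348. These alternatives are not independent checks. Leaving out or redefining early glucose arrays, for example, left the steady-state change itself as it was and could move only its error and adjusted p. PRE8 also missed the threshold without the single 3AT40mM steady-state array (adjusted p = 0.172) and without the single no3AT2 galactose array (0.0916), and PRE5 likewise (0.257 and 0.0808). RPN10 missed it without the no3AT2 galactose array (0.0692), the no3AT galactose array at 316 h (0.0501) or the no3AT glucose array at 507 h (0.0550).

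**Figure D3:**
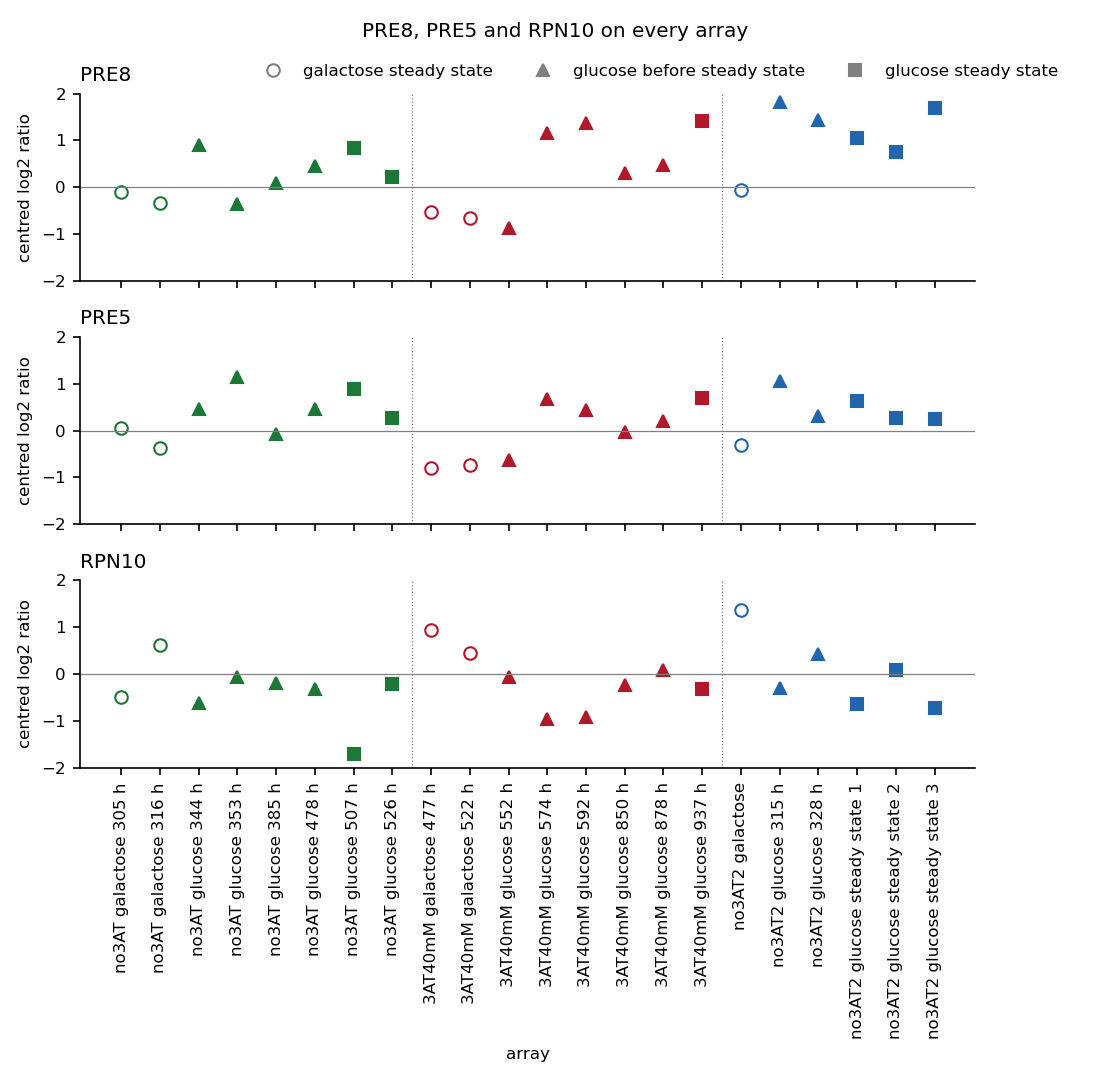
Centred log2 ratios of PRE8, PRE5 and RPN10 on each of the 22 arrays, coloured by chemostat, with open circles for galactose steady state, triangles for glucose before steady state and squares for glucose steady state. For PRE8 and PRE5 every square lies above every open circle, and for RPN10 the circle at -0.50 lies among the squares.

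Among the genes that did not pass at glucose steady state, the largest increase was that of RPN13, a ubiquitin receptor (0.77, SE 0.30, adjusted p = 0.0864, higher in 3 of 3). The largest decreases were those of RPT2 (-0.66, SE 0.27, adjusted p = 0.0994, lower in 3 of 3) and RPN2, a scaffold of the base (-0.40, SE 0.27, adjusted p = 0.314, lower in 3 of 3). RPT2 was -0.13 and RPN2 was 0.23 when neighbour-corrected. The proteolytic subunits differed in sign: PRE2 changed by 0.59 (SE 0.32, adjusted p = 0.202, higher in 3 of 3), PUP1 by 0.26 (SE 0.31, higher in 2 of 3) and PRE3 by -0.39 (SE 0.32, adjusted p = 0.400, lower in 3 of 3). PRE3 was 0.43 when neighbour-corrected, the opposite sign. RPN11 changed by 0.04 (SE 0.27).

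**Figure D4:**
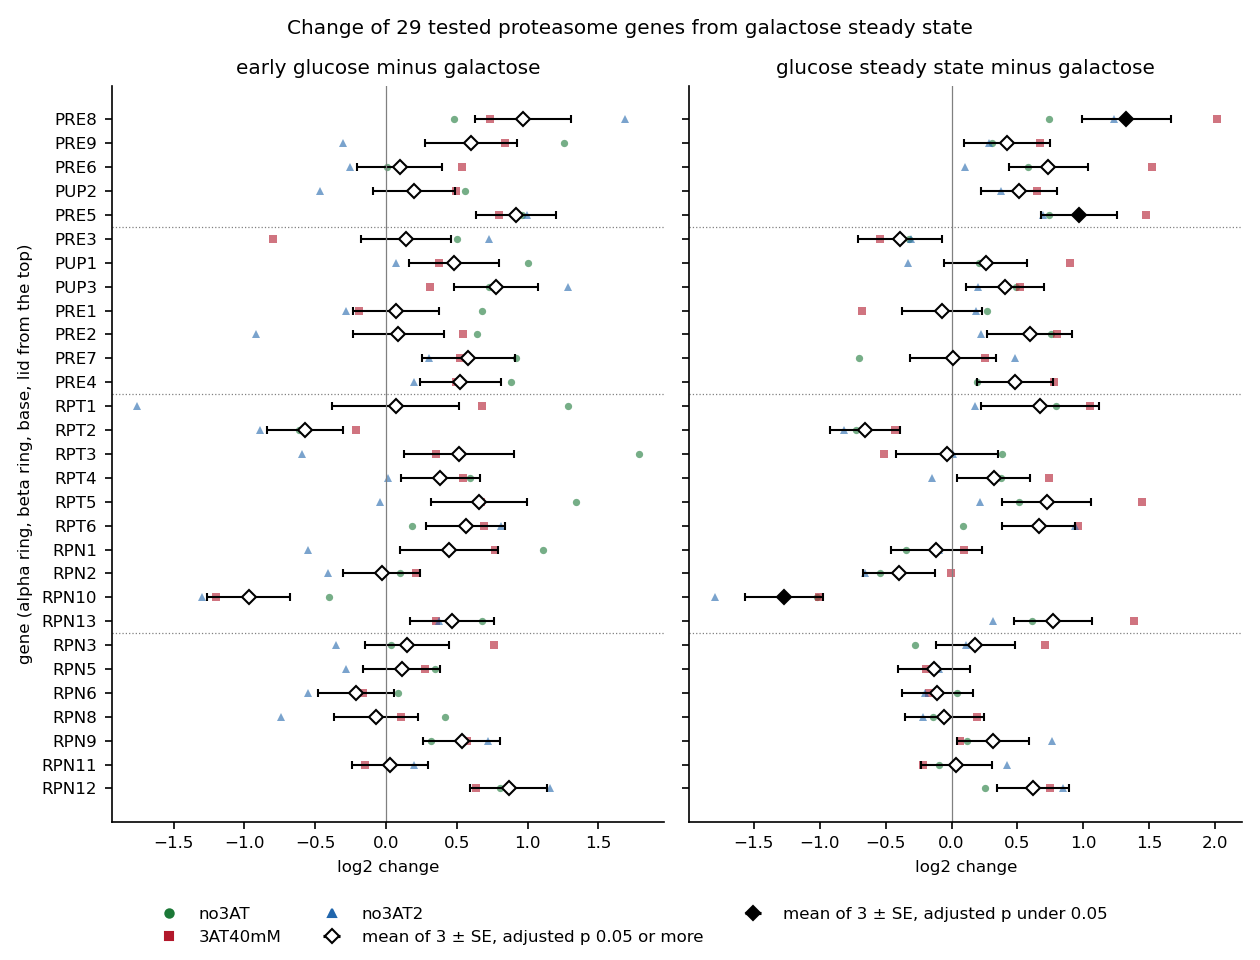
Change of each of the 29 tested genes from galactose to early glucose (left) and to glucose steady state (right), in log2 units. Diamonds with bars are the mean over 3 chemostats ± SE from limma, filled where the adjusted p is under 0.05, and small symbols are the chemostats. On the left all 12 core genes lie to the right of 0, and on the right PRE8, PRE5 and RPN10 are filled.

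Between early glucose and glucose steady state, 13 of the 29 tested genes were higher and the median change was -0.06 (all genes 46.3% and -0.03). None passed by limma (all genes 0.0%), and none had an unadjusted p under 0.05 (all genes 7.19%). The largest increases were those of PRE6, an alpha subunit (0.64, SE 0.30, adjusted p = 0.675), RPT1, an ATPase (0.60, SE 0.45), and PRE2 (0.50, SE 0.32). The largest decreases were those of PRE7 (-0.57, SE 0.33, adjusted p = 0.686), RPN1 (-0.56, SE 0.35) and the ATPase gene RPT3 (-0.55, SE 0.39). RPT1 shows how far the chemostats differed, with -0.49 in no3AT, 0.37 in 3AT40mM and 1.94 in no3AT2. PRE3 changed by -0.53 (SE 0.32), PUP1 by -0.22 (SE 0.31) and RPN11 by 0.01 (SE 0.27).

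Within single cultures the changes were fitted on the 17 arrays. Each gene's error is the scatter among arrays of the same culture and phase, pooled over the cultures, and may be technical. Early arrays of a culture also differ in hour, and the 3AT40mM pair, at 552 and 574 h, correlated at -0.20 across genes. With 574 and 592 h as that pair, 86 of 4775 genes passed in no3AT early glucose, against 0 of 4783. A lack of calls therefore does not measure a culture's own spread. In no3AT, 27 of 29 genes had a positive early change (median 0.59, all genes -0.00), led by the ATPase genes RPT3 (1.79, SE 0.51), RPT5 (1.35, SE 0.56) and RPT1 (1.28, SE 0.49). None passed by limma (all genes 0.0%), and 6 had an unadjusted p under 0.05 (20.7%, all genes 11.3%). RPT3 read -0.73 on the no3AT galactose array with a value, at 316 h, then 0.53 and 1.59 at 344 and 353 h and -0.63 and -0.98 at 385 and 478 h. At glucose steady state 19 of 29 were positive in no3AT (median 0.21, all genes -0.04), none passed (all genes 0.0836%) and none had an unadjusted p under 0.05 (all genes 15.0%). PRE7 there had the most negative change after RPN10 and RPT2, at -0.70 (SE 0.61), with arrays at 0.09 and -2.81.

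In 3AT40mM, 23 of 29 genes had a positive early change (median 0.50, all genes -0.02). None passed (all genes 0.0%), and 1 had an unadjusted p under 0.05 (3.45%, all genes 9.81%). At glucose steady state, with 1 array, 20 of 29 were positive (median 0.65, all genes -0.08), none passed (all genes 0.0%) and 5 had an unadjusted p under 0.05 (17.2%, all genes 16%). The largest increases were those of PRE8 (2.01, SE 0.67), PRE6 (1.52, SE 0.49) and PRE5 (1.47, SE 0.55), with RPN10 at -1.0 (SE 0.64). With 574 and 592 h as the early arrays, 14 genes rose (all genes 13.0% up) and RPN10 and PRE3 fell (all genes 21.9% down), and the median change was 0.87 for the 29 and 0.00 for all genes. Those that rose were 7 core genes (PRE8, PRE5, PRE9, PRE4, PRE2, PUP2 and PRE6) and 7 regulatory genes (RPN12, RPT6, RPT1, RPN13, RPT5, RPT4 and RPN3). PRE8 rose by 1.86 (SE 0.40, adjusted p = 0.00215), RPN12 by 1.46 (SE 0.40, adjusted p = 0.00822) and the ATPase gene RPT6 by 1.35 (SE 0.34, adjusted p = 0.00512). RPN12 read -0.66 and -0.93 in galactose and -1.01 at 552 h, against 0.70 and 0.64 at 574 and 592 h. RPT6 read -0.73, -0.77 and -0.78 on the same first arrays and 0.66 and 0.54 on the later pair, so the 552 h array sat with galactose for both genes. RPN10 fell by 1.63 (SE 0.46, adjusted p = 0.0110), and PRE3 by 0.97 (SE 0.35, adjusted p = 0.0350).

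With 552 h left out and 574 h as the only early array of 3AT40mM, 7 genes rose (all genes 10.3%) and 1, RPN10, fell (all genes 17.8%). With 574 and 592 h and neighbour-corrected values, 11 of the 29 passed, all rising (all genes 13.3% up and 11.5% down). These were RPN3, RPN2, RPN9, RPT4, PRE8, RPT2, RPT5, RPT6, PRE5, RPT1 and RPN12, 9 of them regulatory, so 2 core genes rose in place of 7. RPT2 was at -0.21 without the correction and at 1.00 with it, RPN2 at 0.36 and 1.38, and PRE3 at -0.97 and 0.49.

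In no3AT2, whose arrays carry polyA RNA, 13 of 29 genes had a positive early change (median -0.25, all genes -0.06). None passed by limma (all genes 0.523%), and 3 had an unadjusted p under 0.05 (10.3%, all genes 24.1%). PRE8 (1.69, SE 0.67), PUP3, a structural beta subunit (1.29, SE 0.47), and RPN12 (1.16, SE 0.63) were the largest, and RPT1 (-1.76, SE 0.69), RPN10 (-1.30, SE 0.64) and PRE2 (-0.92, SE 0.58) the most negative. PUP3 read 0.16 in galactose, 1.61 and 1.28 at 315 and 328 h, and 0.34, 0.71 and 0.04 at steady state. At glucose steady state 19 of 29 were positive (median 0.19, all genes 0.11), none passed (all genes 1.38%) and 1 had an unadjusted p under 0.05 (3.45%, all genes 15.8%), with RPN10 at -1.80 (SE 0.60) and PRE8 at 1.23 (SE 0.63).

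The changes were compared between cultures by an interaction contrast. For early glucose in 3AT40mM minus no3AT, the median difference over the 29 genes was -0.24 (all genes -0.09). None passed by limma (all genes 0.0%), and 2 had an unadjusted p under 0.05 (6.90%, all genes 2.91%). The differences of RPT3 (-1.44, SE 0.66) and PRE3 (-1.30, SE 0.54) were the most negative, and that of RPN3, a lid subunit, the most positive (0.72, SE 0.56). The 3AT40mM side of this contrast includes the 552 h array. With 574 and 592 h as its early arrays, the median early change of the 29 genes in 3AT40mM was 0.87, against 0.59 in no3AT. For glucose steady state the median difference was 0.36 (all genes 0.09), led by PRE8 (1.28, SE 0.86), none passed (all genes 0.0%) and none had an unadjusted p under 0.05 (all genes 1.74%). The levels in 3AT40mM minus no3AT had medians of -0.10 in galactose (all genes 0.04) and 0.21 at glucose steady state (all genes 0.13). None passed in either (all genes 0.0% in both), and 1 and 0 had an unadjusted p under 0.05 (all genes 4.22% and 4.16%). PRE3 in galactose had the largest level difference, 0.91 (SE 0.38, adjusted p = 0.996), with -0.40 and -0.24 in no3AT and 0.96 and 0.23 in 3AT40mM. With 1 culture on each side and standard errors of this size, the lack of a call does not show that the cultures behaved alike.

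For early glucose in no3AT2 minus no3AT, both without inhibitor but with different RNA types, the median difference was -0.62 (all genes -0.04). None passed by limma (all genes 0.105%), and 4 had an unadjusted p under 0.05 (13.8%, all genes 13.0%). RPT1 differed most (-3.04, SE 0.84, adjusted p = 0.157): it read -0.60 and 0.14 in no3AT galactose and 0.68 and 1.42 in early glucose, against 0.35 in no3AT2 galactose and -1.41 on the early array with a value. RPT3 followed (-2.38, SE 0.78, adjusted p = 0.218), and both rest on 1 early no3AT2 array, at 315 h. At glucose steady state the median difference was -0.08 (all genes 0.12), none passed (all genes 0.0%) and none had an unadjusted p under 0.05 (all genes 2.80%).

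Across the arrays, the subunit genes varied together loosely. The median Pearson r over the 496 pairs was 0.25, against -0.01 over 11436153 pairs of tested genes, and 0.26 against -0.00 when neighbour-corrected. Pairs within the core had a median r of 0.32, pairs within the regulatory particle 0.20 and pairs across them 0.23. Neighbour-corrected these were 0.23, 0.27 and 0.23, so the order of core and regulatory pairs was not kept. The arrays share the reference pool and, within a chemostat, the culture, so these are descriptions with no test.

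The highest correlations were those of PRE5 with RPN12 (0.86), PRE9 with SCL1 (0.83), PRE6 with RPN7 (0.82), PRE4 with RPN12 (0.81) and PRE9 with RPT3 (0.80). The pairs PRE5 with RPN12, PRE6 with RPN7, PRE4 with RPN12 and PRE9 with RPT3 each join a core and a regulatory gene. The lowest were PRE5 with RPT2 (-0.70), RPN10 with RPT6 (-0.67) and PRE5 with RPN10 (-0.64). PRE4, a beta subunit (0.45), PRE9, an alpha subunit (0.44), and RPN12 (0.43) had the highest median r with the other genes, and RPN10 (-0.21), RPT2 (-0.11) and PRE3 (-0.10) were the genes with a negative median.

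**Figure D5:**
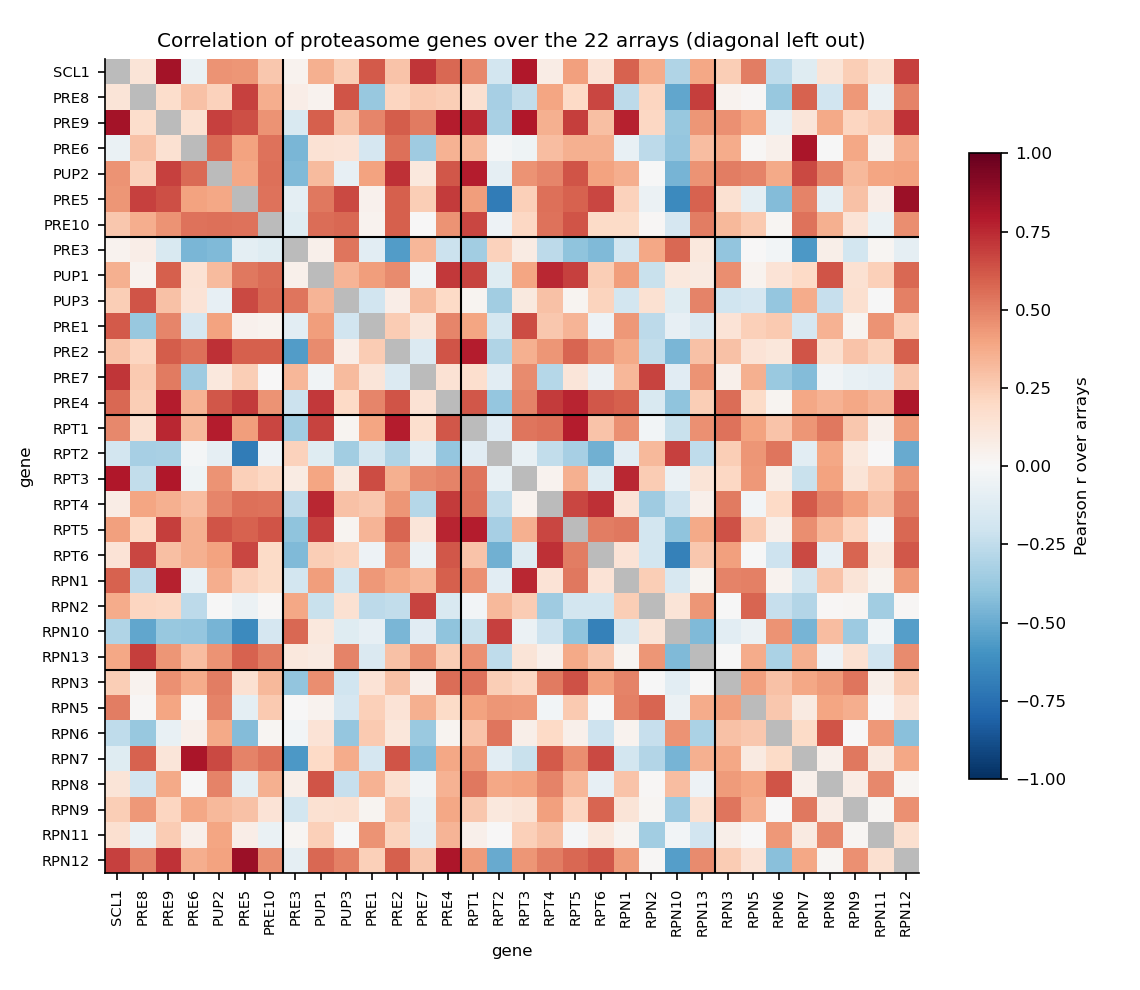
Pearson r between each pair of the 32 genes over the arrays where both have a value, red for positive and blue for negative, with lines between alpha ring, beta ring, base and lid. The rows of RPN10, RPT2 and PRE3 are mostly blue (median r of -0.21, -0.11 and -0.10), and most others are mostly red.

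RPN4, the activator of these genes, read -0.93 and -1.15 in no3AT galactose, 0.49 and -0.55 in 3AT40mM and -0.47 in no3AT2. On the steady-state glucose arrays it read -0.08 and -0.98, then -0.26, then -0.57, 0.07 and -0.80, so the phases overlapped. Its change was -0.08 (SE 0.35, adjusted p = 0.918) in early glucose, 0.10 (SE 0.35, adjusted p = 0.854) at glucose steady state, and 0.19 (SE 0.35) from the former to the latter. Neighbour-corrected, these changes were 0.33, 0.76 (limma's adjusted p = 0.237) and 0.43. Without the correction, the early changes were 1.18 in no3AT, -0.69 in 3AT40mM and -0.74 in no3AT2. Over the arrays, r between RPN4 and a subunit gene ranged from -0.36 (RPT6) to 0.62 (RPT3), with a median of 0.22, and was above 0 for 24 of the 32. The same over all genes is not given here, so this count has no share to be read against. The genes called at glucose steady state, PRE8, PRE5 and RPN10, had r of -0.24, -0.10 and 0.13 with RPN4.

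Other genes of the pathway were taken as lists of assembly factors, associated factors, ubiquitin shuttles, the Cdc48 complex, ubiquitin and its enzymes, and regulators. Of these 44 genes, which count the missing SEM1 with the associated factors, 31 were tested. In early glucose 1 rose and none fell (all genes 0.251% up and 6.86% down), and at glucose steady state none rose and 1 fell (all genes 4.54% and 13.0%). Of the 7 tested assembly factors, NAS6, a chaperone of the base, rose in early glucose by 0.99 (SE 0.28, adjusted p = 0.0495, higher in 3 of 3), and its change at steady state was 0.49 (SE 0.28, adjusted p = 0.230). NAS6 read -0.01 and 0.10 in no3AT galactose, -0.49 and -0.51 in 3AT40mM and -0.64 in no3AT2, and in early glucose 0.17 and 2.15, -0.37 and 0.71, and 0.58 and 0.48. The no3AT array at 353 h held its highest value, and neighbour-corrected the early change was 0.66 (adjusted p = 0.204). UMP1, a chaperone of the core, changed by -0.68 (SE 0.30, adjusted p = 0.126, lower in 3 of 3) at steady state, opposite in sign to the core median, and by 0.07 when neighbour-corrected.

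UBC1, a ubiquitin-conjugating enzyme, fell at glucose steady state by 1.11 (SE 0.32, adjusted p = 0.0302, lower in 3 of 3), and by 0.89 (adjusted p = 0.187) when neighbour-corrected. UBI4, which encodes polyubiquitin, changed by 0.14 (SE 0.38) in early glucose and by 0.52 (SE 0.38, adjusted p = 0.344, higher in 3 of 3) at steady state. The neighbour-corrected changes of UBI4 were -0.18 and -0.45, opposite in sign. Before correction, its steady-state change in no3AT2 was 0.03. UBI4 read -2.11 and -1.25 on the no3AT2 glucose arrays at 315 and 328 h, below every other array, whereas in no3AT it read 0.63 and 0.22 on the early arrays. None of the 7 genes of the Cdc48 complex, which extracts tagged proteins, passed in either comparison, and their median changes were 0.09 and -0.08. The shuttle genes tested, DSK2 and RAD23, whose products carry tagged proteins to the proteasome, changed by 0.74 (SE 0.29, adjusted p = 0.139) and 0.43 (SE 0.26) in early glucose, and by 0.72 (SE 0.29, adjusted p = 0.0936) and 0.38 (SE 0.26) at steady state, higher in 3 of 3 chemostats each time. At steady state UBR2, of the regulators list, changed by 0.75 (SE 0.28, adjusted p = 0.0737, higher in 3 of 3). MUB1, of the same list, changed by -0.64 (SE 0.29, limma's adjusted p = 0.141, lower in 3 of 3). Of the 5 tested regulators 2 had a positive change, and the median was -0.33. NAS2, an assembly factor, changed by -0.76 (SE 0.31, adjusted p = 0.0980, lower in 3 of 3). Neighbour-corrected, UBR2 changed by 0.09, MUB1 by -1.29 and NAS2 by 0.06. From early glucose to steady state none of the 31 passed (all genes 0.0%), and 1 had an unadjusted p under 0.05 (all genes 7.19%). That gene was UBR2, with a change of 0.80 (SE 0.28), and of 0.20 when neighbour-corrected.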

How the data were processed

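Each array has 1 column of log2 ratios, Cy5 over Cy3, as the authors deposited them. The values are signed, lie around 0 and were taken as log2, but the base is not stated, and a different base would scale every log2 value here. RNA was extracted with hot phenol, per the labels' protocols. How the arrays were scanned and normalized is not given in the sources used here. Row IDs were named by the R64 gene table (5763 of 6281 matched, 57 by an older name), and the 76 rows that shared a gene were averaged with it. Each array was centred on its median.

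Testing required values on 80% or more of the 22 arrays and for every chemostat in every phase, which 4783 genes met. Changes over chemostats were fitted with limma 3.58.1 (R 4.3.3) on 9 chemostat and phase means of 17 arrays, with chemostat as a block (degrees of freedom: 4 residual, 10.4 prior). Changes within and between chemostats came from a fit of the 17 arrays (8 residual, 11.4 prior), which lends a phase with 1 array the spread of the rest. Tests are two-sided, with Benjamini-Hochberg adjustment over all genes tested and a threshold of 0.05. The fits were tested on simulated data. The other 5 glucose arrays are described only. Depth is unknown, since no intensities are given, and the number of arrays limits the precision.

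The genes, lists and tests were chosen with earlier results of these data known. Named in the comparisons over 3 chemostats are the genes past the threshold, the 3 largest increases and decreases, PRE2, PRE3, PUP1, RPN11 and RPN4. Genes with missing values are described by array. Within and between single cultures only some of these genes are given. Up to 4 other pathway genes with the largest changes were planned, and those given do not keep to that rule. Other genes were named after their values were seen. Alternatives were other normalizations, filters, moderation, blocks, definitions of early glucose, neighbour correction, and leaving out each array and chemostat. Promoter motifs were not analysed here.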

Additional observations from a re-analysis of the deposited data

Results flagged for a closer look

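In each group of 4 to 10 arrays, the highest and the lowest value of each gene were compared with the nearest other value, as a share of the group's range. Of 71 such tests of the proteasome genes 2 stood apart, and chance alone flags about 1 in 20. Both were on the 3AT40mM glucose array at 878 h. There RPT2 read 0.39, where the other 4 glucose arrays before steady state of that chemostat read -0.16 to -0.04. RPN8 read -0.01 (-0.0071), where the others read -0.41 to -0.32.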

How the results depend on the processing

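Over the alternatives, 912 recomputed results kept their direction and side of the threshold, 61 moved, 28 were weaker, 26 were stronger and none reversed sign among called values. Each count of proteasome genes past the threshold is followed by the share of all genes past it in the same fit. In early glucose the count, 0 (7.11%), was 2 with robust and trended moderation (10.2%), 1 with arrays as units (6.15%), 4 with every array before steady state as early glucose (12.9%) and 4 with 574 and 592 h (12.2%), an alternative chosen after seeing the data. The count at glucose steady state, 3 (17.6%), was 7 with quantile normalization (25.7%), 0 when neighbour-corrected (0.418%; 0 also with 574 and 592 h, 0.0%) and 1 with the lowest hour as early glucose (8.29%). In 3AT40mM early glucose the count was 16 with 574 and 592 h (35.0%) and 11 when neighbour-corrected as well (24.8%), and at its steady state 1 with 574 and 592 h (1.91%). In no3AT2 early glucose it was 1 when neighbour-corrected (4.08%), 3 with 574 and 592 h (12.3%) and 3 with both (11.4%), and at its steady state 1 with 574 and 592 h (7.94%). The difference of no3AT2 minus no3AT in early glucose gave 1 gene with 574 and 592 h (1.51%) and 1 with both (1.76%). The core median in early glucose, 0.50, was 0.21 when neighbour-corrected and 0.19 with the lowest hour. The regulatory median at steady state, 0.04, was 0.19 with quantile normalization, -0.054 with genes valued on all arrays, 0.20 when neighbour-corrected (0.20 also with 574 and 592 h) and -0.037 with the lowest hour. The core median from early glucose to steady state was 0.24 with the lowest hour. The cause of these moves was not tested.

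Leaving out 1 array or 1 chemostat at a time moved the early glucose count between 0 and 3, its median between 0.17 and 0.52, the core median between 0.26 and 0.74 and the regulatory median between 0.02 and 0.44. The count was 3 without the no3AT galactose array at 305 h (11.1%) or the 3AT40mM array at 552 h (10.5%), 2 without no3AT at 353 h (9.08%) and 1 without 3AT40mM at 522 h (7.38%). At glucose steady state the count lay between 0 and 9, the median between 0.16 and 0.49, the core median between 0.34 and 0.62 and the regulatory median between -0.015 and 0.15. It was 5 without no3AT at 526 h (20.2%), and 1 without no3AT at 316, 344 or 507 h (10.3%, 7.79% and 11.1%) or 3AT40mM at 574 or 937 h (12.4% and 6.88%). It was 9 without the no3AT2 chemostat (23.2%), and 0 without the 3AT40mM chemostat (3.47%) or the no3AT2 galactose array (6.26%). From early glucose to steady state the count lay between 0 and 1 (1 without no3AT2, 5.1%), the median between -0.18 and 0.07, the core median between -0.26 and 0.18 and the regulatory median between -0.19 and 0.05. Within cultures, the count lay between 0 and 8 in 3AT40mM early glucose (8 without 552 h, 28.0%), between 0 and 2 in no3AT2 early glucose (2 without 3AT40mM at 552 or at 574 h, 10.7% and 10.8%), and between 0 and 1 in no3AT early glucose (1 without 344 h, 3.48%), in no3AT steady state (1 without 507 h, 1.45%) and in no3AT2 minus no3AT early glucose (1 without 3AT40mM at 552 or at 574 h, 1.3% and 1.32%). In the other 7 comparisons it was 0 each time.

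Single arrays could not be paired between phases, because the labels number only the no3AT2 steady-state glucose arrays and the groups share fewer than 2 replicate numbers. Phases were paired by culture instead, with the chemostat as the block, and without that block PRE5 missed the threshold (limma's adjusted p = 0.0601). Promoter motifs, listed as a result to describe, were not run. The log base, the signal behind each ratio and its error are unknown, and so is any dye bias, since no dye swap is among the arrays used here. Inhibitor and polyA RNA are each confounded with 1 culture.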
